A study of Mus musculus with 10 samples.

Results

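Bone matrix holds a family of acidic, heavily phosphorylated secreted proteins, the small integrin-binding ligand N-linked glycoproteins (SIBLING proteins). The 4 family genes with a row in the count table were *Ibsp*, *Spp1*, *Dmp1* and *Mepe*, and they were examined with *Fam20c* and *Phex*, which encode an enzyme that phosphorylates these proteins and one that cuts peptides released from them. Rows were taken by gene symbol, and the 6 genes are 6 of 23080 genes listed. All 6 passed the filter on low counts that left 16267 genes to be tested. The *Dspp* gene, which lies beside *Dmp1*, was not analysed here.

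RNA came from the anterior fontanelle (AF) of mouse embryos at E18.5. The AF is the soft gap between the frontal and parietal bones, and it was excised with suture connective tissue and bone, without skin and brain. Of the 10 libraries, 5 are labelled wild type, for embryos that the study calls littermate controls, and 5 are labelled *Wnt1-Cre; Fgfr2fl/fl*, in which Cre acts in neural crest cells and the mesenchyme they form. The fibroblast growth factor receptor gene *Fgfr2* is thus targeted in neural crest derivatives, while other cells of the excised tissue, such as osteoclasts, are outside the reach of this Cre. The labels give no batch, and name no parent embryo for any library beyond the replicate number, so p-values measure the spread between these samples. The study describes littermate pairs, but the labels do not say which libraries form a pair.

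As the targeted gene, *Fgfr2* was read first. Its level was 199.5 ± 21.7 CPM (counts scaled to library size with TMM normalization, SD, n = 5) in the libraries labelled wild type and 318 ± 32.8 CPM (n = 5) in those labelled knockout. It was higher in the latter by 0.67 log2 units (edgeR, adjusted p = 0.0487), with no overlap between groups, although the label names a knockout. Over all alternative fits its adjusted p ran from 4e-10 to 0.427, with the same direction in each. Gene-level counts do not separate reads of floxed exons from the others, and *Fgfr2* shares 314 exon bases with *Ctbp2* in the annotation. The direction of this count alone does not decide whether the labels are right. The groups are therefore named as the labels name them, WT-labelled and KO-labelled, and every direction below is by label. No other gene was used to check the labels.

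Library totals ran from 20774667 to 28515434 counts, and 18.6% to 33.5% of them were for *CT010467.1*, which codes for ribosomal RNA. KO-labelled library 2 stood farthest out on the first principal component and had the highest summed level of neuron markers, 333 CPM against 39.2 to 139 CPM in the other 9 libraries. The gene differences were also computed without it and are given below. Defining osteoblast markers were abundant in both groups, with *Sp7* at 216 ± 14.2 CPM in WT-labelled and 183 ± 20 CPM in KO-labelled libraries (SD, n = 5 each).

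SIBLING proteins are made by osteoblasts, the cells that lay down bone, and by osteocytes, the cells that become embedded in it. Bone sialoprotein, from *Ibsp*, binds collagen and hydroxyapatite and appears as osteoblasts begin to mineralize matrix, and osteopontin, from *Spp1*, binds integrins and mineral and is made by osteoclasts and macrophages as well. Dentin matrix protein, from *Dmp1*, and the matrix extracellular phosphoglycoprotein, from *Mepe*, belong to later steps, when osteoblasts turn into osteocytes. The Golgi kinase Fam20c phosphorylates secreted proteins of this family on serines, and the membrane endopeptidase Phex, found on osteoblasts and osteocytes, degrades acidic mineral-binding peptides released from Mepe and other SIBLING proteins. Loss of PHEX or DMP1 function is known to cause hypophosphatemic rickets, and loss of FAM20C to cause Raine syndrome.

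The SIBLING genes lie next to each other on one strand of mouse chromosome 5. By the deposited coordinates (GRCm38), *Dmp1* spans chr5:104202613-104214102, *Ibsp* chr5:104299171-104311469, *Mepe* chr5:104325329-104338611 and *Spp1* chr5:104435118-104441050, all on the plus strand and 238.4 kb from the start of *Dmp1* to the end of *Spp1*. *Fam20c* lies far from them on the same chromosome, at chr5:138754514-138810077 on the plus strand, and *Phex* is X-linked, at chrX:157162075-157415312 on the minus strand. *Spp1* shares 309 exon bases with the same-strand gene model *Gm42793*, so reads there cannot be assigned with certainty. The other 5 genes shared no exon bases with another gene of the annotation.

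Because the 4 clustered genes were all lower in KO-labelled means, the bases just upstream of their RefSeq starts (GRCm38.p6, plus strand, 5′ to 3′) are shown. Capitals mark matches on either strand to CCAAT, to TGTGGT and to the palindrome TTTAAA, which read ATTGG and ACCACA where the first 2 lie on the other strand. *Dmp1* is shown over chr5:104202463-104202612, *Mepe* over chr5:104325179-104325328 and *Spp1* over chr5:104434961-104435110. For *Ibsp* the RefSeq start lies 116 bases downstream of the deposited start, so only 30 bases around its match are given, chr5:104299221-104299250.
Dmp1: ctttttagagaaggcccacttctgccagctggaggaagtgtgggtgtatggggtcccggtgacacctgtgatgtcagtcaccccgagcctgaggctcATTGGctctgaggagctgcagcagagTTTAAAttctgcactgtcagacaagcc
Ibsp: gccacagctgtgATTGGctgttgagaggcg
Mepe: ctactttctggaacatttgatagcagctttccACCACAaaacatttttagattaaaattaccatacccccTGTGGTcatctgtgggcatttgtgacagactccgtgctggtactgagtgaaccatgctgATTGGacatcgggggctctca
Spp1: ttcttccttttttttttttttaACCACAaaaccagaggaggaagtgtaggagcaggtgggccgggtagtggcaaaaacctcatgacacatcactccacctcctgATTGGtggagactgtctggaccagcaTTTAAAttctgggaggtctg

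Each of the 4 sequences holds ATTGG, with its first base at −57 from the RefSeq start in *Dmp1*, −54 in *Ibsp*, −46 in *Spp1* and −21 in *Mepe*. For *Dmp1* and *Spp1* 2 RefSeq starts are listed, and positions are given from 1 of them. In windows of 300 bases around all 32851 RefSeq starts of the table, 37.4% hold CCAAT on either strand, and 4.78% hold ATTGG with its first base 20 to 60 bases before the start. The range of 20 to 60 bases and the letters TTTAAA were picked after these sequences had been seen. TGTGGT, the core letters that Runx factors bind, was found at −128 in *Spp1*, at −80 and −118 in *Mepe*, and at −164 in *Dmp1*, outside the stretch printed. It was found in 16.8% of all windows, and no match lay in the windows of *Ibsp*, *Phex* and *Fam20c*. TTTAAA lay at −20 in *Spp1* and −31 in *Dmp1*, against 13.2% of windows that hold it. *Fam20c* held CCAAT at −73, and *Phex* held no CCAAT and a TTTAAA at −56. In *Mepe*, TTTAAA began at 5, after the start. These matches describe letters and were not tested as binding sites.

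Per kilobase of exon, *Spp1* was the most abundant of the 6 transcripts and *Fam20c* the least. Levels in WT-labelled libraries were 2740 ± 413 CPM per kb for *Spp1*, 824 ± 89.7 for *Ibsp*, 189 ± 33.4 for *Dmp1*, 36.3 ± 6.68 for *Phex*, 19.5 ± 5.90 for *Mepe* and 9.21 ± 1.28 for *Fam20c* (SD, n = 5). By this measure *Spp1* ranked 13 and *Ibsp* 31 of 15960 genes with a length, while *Fam20c* ranked 3118. Each step of the order held in all 5 WT-labelled libraries, with *Spp1* 3.31 times *Ibsp*, *Ibsp* 4.39 times *Dmp1* and *Dmp1* 5.22 times *Phex* (ratios of geometric means). *Phex* over *Mepe* and *Mepe* over *Fam20c* were closer, at 1.91 and 2.05 times. In KO-labelled libraries the order was the same, except that *Mepe* was above *Fam20c* in 4 of 5.

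The summed level of the 4 SIBLING genes was 3770 ± 419 CPM per kb in WT-labelled and 2800 ± 294 CPM per kb in KO-labelled libraries (SD, n = 5 each). WT-labelled sums ran from 3300 to 4330 and KO-labelled sums from 2550 to 3300 CPM per kb. *Spp1* made up 72.39 ± 3.43% of the WT-labelled sum and 75.6 ± 3.02% of the KO-labelled sum, and *Ibsp* 22.1 ± 3.85% and 19.47 ± 2.84%. *Dmp1* gave 4.99 ± 0.41% and 4.53 ± 0.65%, and *Mepe* 0.51 ± 0.13% and 0.40 ± 0.14%. The makeup of the sum thus overlapped between groups for each of the 4 genes.

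All 6 genes had a lower mean in KO-labelled libraries, by 18% to 43.7%, and none passed an adjusted p of 0.05. Of all genes tested, 0.0184% (3 genes) had an adjusted p under 0.05 in either direction. Each of the 6 had an unadjusted p under 0.05 in the lower direction, which 3.82% of all genes tested had (621 genes). In none of the 6 did every KO-labelled library lie below every WT-labelled one, a separation seen in 0.701% of genes tested. With DESeq2's Wald test in place of edgeR, *Ibsp*, *Spp1* and *Dmp1* had an adjusted p under 0.05, as did 0.615% of the genes given one (98 of 15923). The median log2 fold change was −0.49 over the 6 genes and 0.00 over all genes tested, where 8085 were lower and 8182 higher. With bulk samples, fewer cells of a type and less RNA per cell cannot be told apart.

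Among the genes of the mineralizing osteoblast, *Ibsp* read 1877, 1611, 1508, 1599 and 1926 CPM in WT-labelled libraries 1 to 5. In KO-labelled libraries 1 to 5 it read 987, 827, 1121, 1212 and 1537 CPM. Only KO-labelled library 5 reached the WT-labelled range, at its lower end. The mean was 1704 ± 185.4 CPM against 1137 ± 266 CPM (SD, n = 5 each), a difference of −0.58 log2 units (SE 0.148, edgeR adjusted p = 0.348, unadjusted p = 0.00204, exact permutation p = 0.0159). Counts for *Ibsp* ran from 20810 to 50633 per library.

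*Spp1*, the most abundant of the 6, read 3672, 4068, 4749, 5447 and 4651 CPM in WT-labelled libraries 1 to 5 and 3452, 3344, 3419, 3207 and 3981 CPM in KO-labelled libraries 1 to 5. In all, 4 KO-labelled libraries lay below all WT-labelled ones, and library 5 lay above the lowest of these. The mean was 4518 ± 681 CPM against 3481 ± 295 CPM (SD, n = 5 each), or −0.38 log2 units (SE 0.113, edgeR adjusted p = 0.454, exact permutation p = 0.0159). The WT-labelled spread was the wider one, with a coefficient of variation of 15.1% against 8.5%.

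Of the genes of osteocyte formation, *Dmp1* had the smallest unadjusted p of the 6. It read 406, 455, 584, 631 and 542 CPM in WT-labelled libraries 1 to 5 and 302, 288, 428, 352 and 382 CPM in KO-labelled libraries 1 to 5. KO-labelled library 3 alone lay within the WT-labelled range, above WT-labelled library 1. The mean went from 523 ± 92.3 CPM to 350.4 ± 57.7 CPM (SD, n = 5 each), a difference of −0.58 log2 units (SE 0.138, edgeR adjusted p = 0.321, unadjusted p = 0.00135, exact permutation p = 0.0159).

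*Mepe* had the largest difference of the 6 on the log2 scale and also the widest spread. WT-labelled libraries 1 to 5 held 30.8, 19.0, 41.8, 43.2 and 29.6 CPM, and KO-labelled libraries 1 to 5 held 16.3, 24.1, 16.7, 23.8 and 11.7 CPM. Of the KO-labelled libraries, 2 lay above the lowest WT-labelled one, and the coefficient of variation was 30.2% and 28.8%. The mean was 32.9 ± 9.92 CPM against 18.497 ± 5.33 CPM (SD, n = 5 each), or −0.83 log2 units (SE 0.238, edgeR adjusted p = 0.432, exact permutation p = 0.0317). *Mepe* rests on 264 to 1056 counts per library, the lowest of the 6 genes.

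For the peptidase gene *Phex*, WT-labelled libraries 1 to 5 gave 219, 175, 235.2, 292 and 221 CPM and KO-labelled libraries 1 to 5 gave 177, 160, 187, 147 and 192 CPM. The groups overlapped through WT-labelled library 2, the lowest of its group. The mean was 228 ± 42.0 CPM against 173 ± 19.0 CPM (SD, n = 5 each), a difference of −0.40 log2 units (SE 0.122, edgeR adjusted p = 0.454, exact permutation p = 0.0317). With *Xist* as a covariate, which stands for the sex of the embryo, the difference of this X-linked gene was −0.40 log2 units (edgeR adjusted p = 0.525).

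The kinase gene *Fam20c* differed least of the 6. Its level was 49.0, 55.8, 67.1, 69.8 and 62.0 CPM in WT-labelled libraries 1 to 5 and 46.8, 47.0, 48.8, 52.5 and 54.0 CPM in KO-labelled libraries 1 to 5. In 3 KO-labelled libraries it lay below every WT-labelled one. The mean was 60.7 ± 8.44 CPM against 49.8 ± 3.30 CPM (SD, n = 5 each), or −0.29 log2 units (SE 0.092, edgeR adjusted p = 0.515, exact permutation p = 0.0317). For all 6 genes, the exact permutation tests were two-sided over 252 regroupings of the libraries, and the smallest p they allow is 0.00794.

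**Figure D1:**
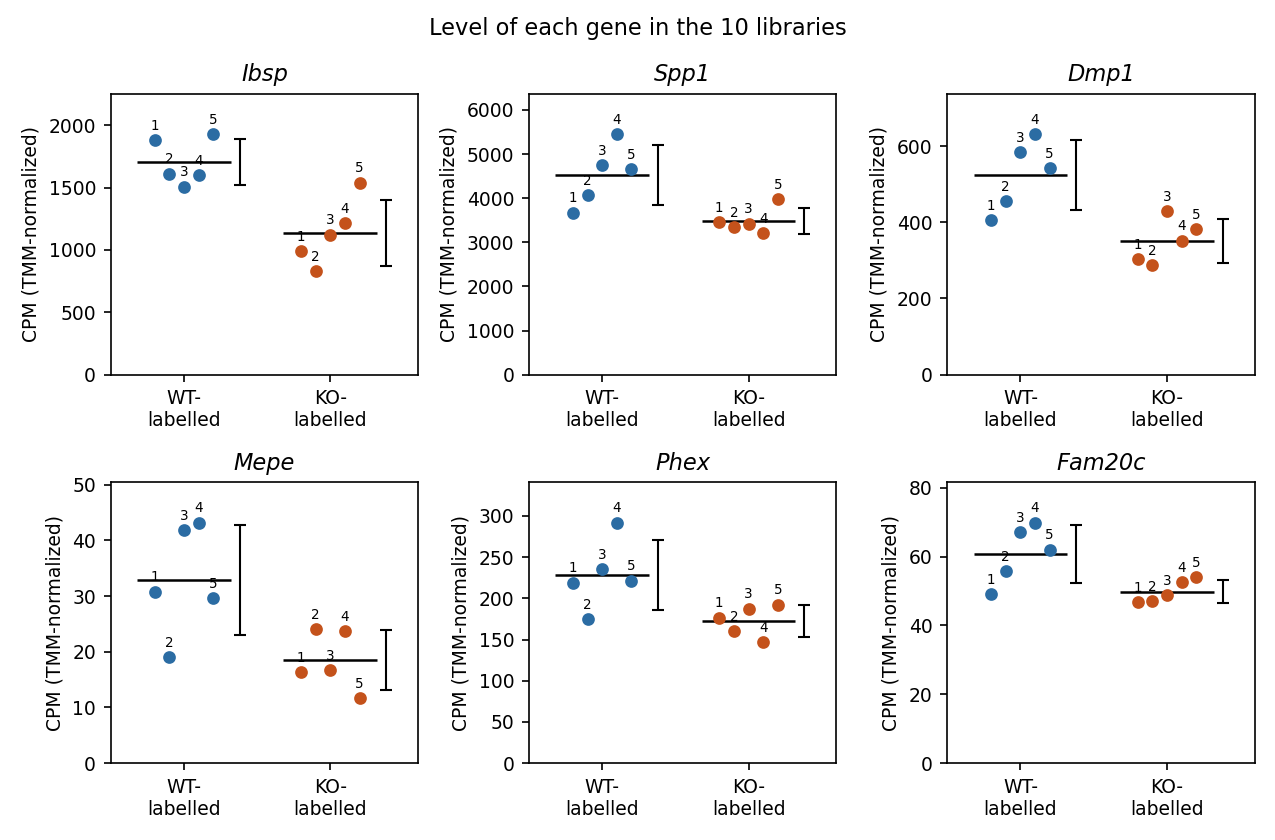
TMM-normalized CPM of *Ibsp*, *Spp1*, *Dmp1*, *Mepe*, *Phex* and *Fam20c* in each library (points, numbered by replicate), on linear axes from 0. Horizontal lines are group means and bars the SD over 5 libraries, and in each panel the KO-labelled mean lies lower while the groups overlap.

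The same libraries were not high or low for every gene. WT-labelled library 4 had the highest level of *Spp1*, *Dmp1*, *Mepe*, *Phex* and *Fam20c*, but not of *Ibsp*, which was highest in WT-labelled library 5. KO-labelled library 2 was lowest for *Ibsp* and *Dmp1* and yet highest of its group for *Mepe*. KO-labelled library 5 was highest of its group for *Ibsp*, *Spp1*, *Phex* and *Fam20c* and lowest for *Mepe*. Without KO-labelled library 2, the differences were −0.48 for *Ibsp*, −0.36 for *Spp1*, −0.51 for *Dmp1*, −0.93 for *Mepe*, −0.37 for *Phex* and −0.26 log2 units for *Fam20c* (edgeR, lowest adjusted p = 0.362), each again at an unadjusted p under 0.05.

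The design asks whether genes of the early osteoblast and genes of the osteocyte stage differed alike. Of 10 early osteoblast genes, which include the transcription factor genes *Runx2* and *Sp7* and the collagen genes of bone, 10 had a lower fitted value. Over all genes tested, 3.82% were lower at an unadjusted p under 0.05, a share to set beside the count of each list below. The median log2 fold change of the 10 genes was −0.13, and 3 reached an unadjusted p under 0.05. These were *Alpl*, the phosphatase that frees phosphate for mineral, at 504 ± 48.9 against 386 ± 46.0 CPM (−0.38, edgeR adjusted p = 0.336, groups not overlapping), *Sp7* (−0.24, adjusted p = 0.522) and *Tnc*, the matrix protein tenascin C (−0.25, adjusted p = 0.595). Type I collagen, the main protein of bone, was close to equal, with *Col1a1* at 66200 ± 4400 against 64100 ± 10100 CPM.

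Mature osteoblast genes gave a median of −0.21 log2 units, with 8 of 8 lower and 4 at an unadjusted p under 0.05. The 4 were *Phospho1*, a phosphatase of matrix vesicles (−0.32, edgeR adjusted p = 0.471), *Ifitm5*, a mineralization gene of osteoblasts (−0.33, adjusted p = 0.502), the parathyroid hormone receptor *Pth1r* (−0.20, adjusted p = 0.522) and *Col22a1* (−0.28, adjusted p = 0.635, and −0.18 without KO-labelled library 2). Osteocyte genes outside the 6 gave a median of −0.19, with 7 of 8 tested lower and 5 at an unadjusted p under 0.05. *Sost*, which encodes the osteocyte WNT inhibitor sclerostin, read 72.3 ± 23.7 CPM in WT-labelled and 48.6 ± 8.86 CPM in KO-labelled libraries (−0.57 log2 units, edgeR adjusted p = 0.621). Without WT-labelled library 4 its difference was −0.39 log2 units. The rest of the 5 were the WNT inhibitor gene *Dkk1* (−0.29, and −0.20 without WT-labelled library 4), *Cd44* (−0.22), *Irx5* (−0.20) and *Dstn*. The last, an actin-severing gene, had −0.15, and −0.10 without WT-labelled library 5. *Fgf23*, the phosphate hormone of osteocytes, held 90 counts over all 10 libraries and was not tested. No gene of these 3 lists had an adjusted p under 0.05.

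**Figure D2:**
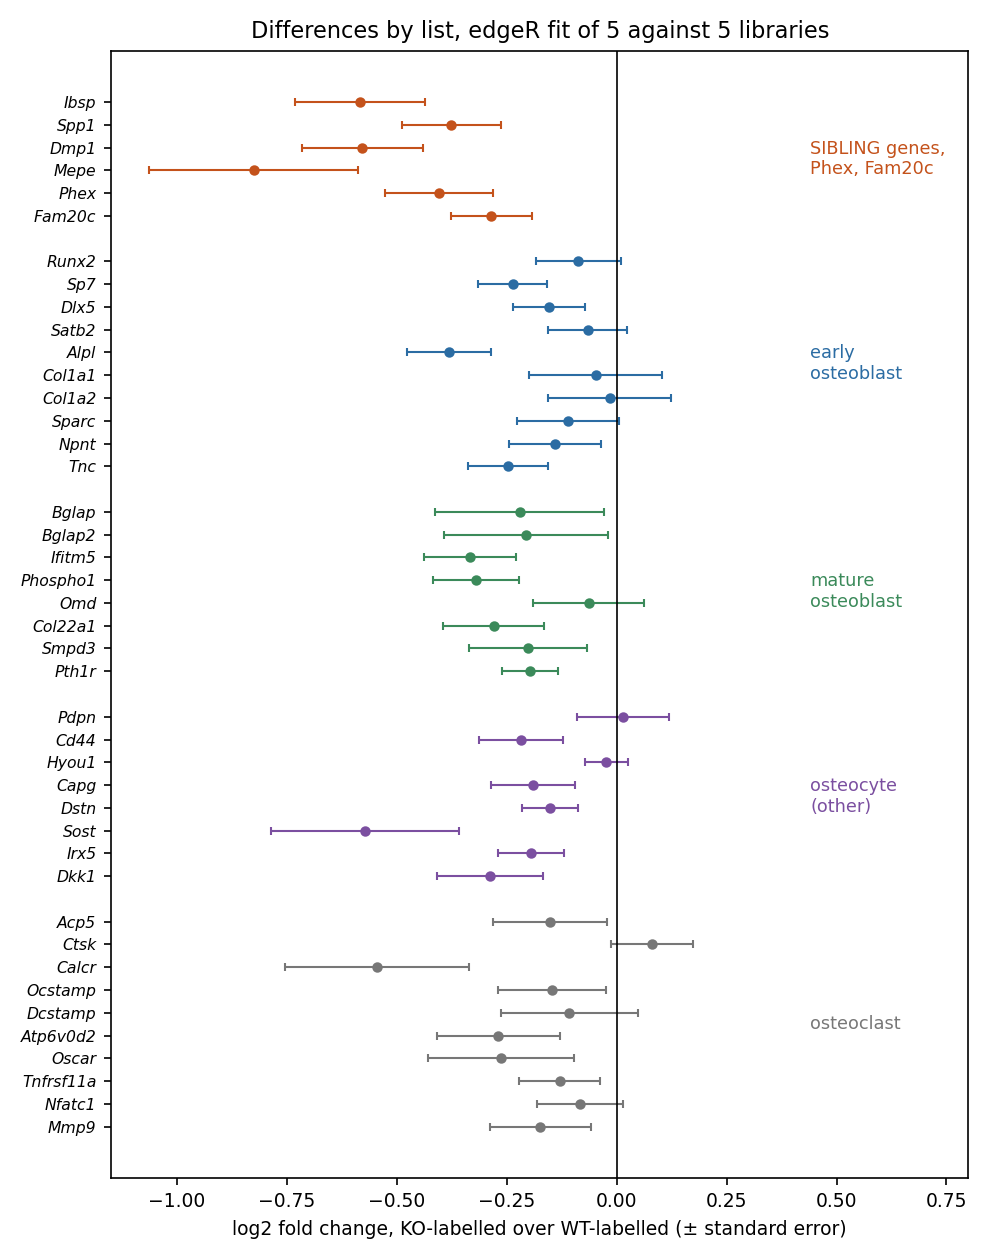
Fitted log2 fold change (KO-labelled over WT-labelled, points) with its standard error (bars) for the 6 genes and for the tested genes of 4 hand-written lists. Values of the 6 run from −0.83 for *Mepe* to −0.29 for *Fam20c*, against list medians of −0.13 for early osteoblast, −0.21 for mature osteoblast, −0.19 for other osteocyte and −0.15 for osteoclast genes.

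To set the 6 genes against the early osteoblast list, each was expressed as its log2 CPM minus the mean log2 CPM of the 10 early osteoblast genes in the same library. That early mean itself was 9.89 ± 0.027 in WT-labelled and 9.735 ± 0.149 in KO-labelled libraries (SD, n = 5 each). It was below every WT-labelled value in 4 of 5 KO-labelled libraries, while KO-labelled library 5, at 9.94, lay above the highest WT-labelled value of 9.92. Relative to it, *Ibsp* stood at 0.84 ± 0.15 in WT-labelled and 0.39 ± 0.19 in KO-labelled libraries, a difference of −0.45 log2 units with all 5 KO-labelled libraries below every WT-labelled one, a separation seen on this scale in 0.111% of genes tested (18 genes). In CPM the groups overlapped through KO-labelled library 5, whose early mean was the highest of the 10. The differences were −0.67 for *Mepe* and −0.42 for *Dmp1*, with 3 and 4 of 5 KO-labelled libraries below every WT-labelled one. For *Phex* (−0.24) and *Spp1* (−0.21) this held for 1 library each, and for *Fam20c* (−0.12) for none. These relative values are given as descriptions, with no test.

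**Figure D3:**
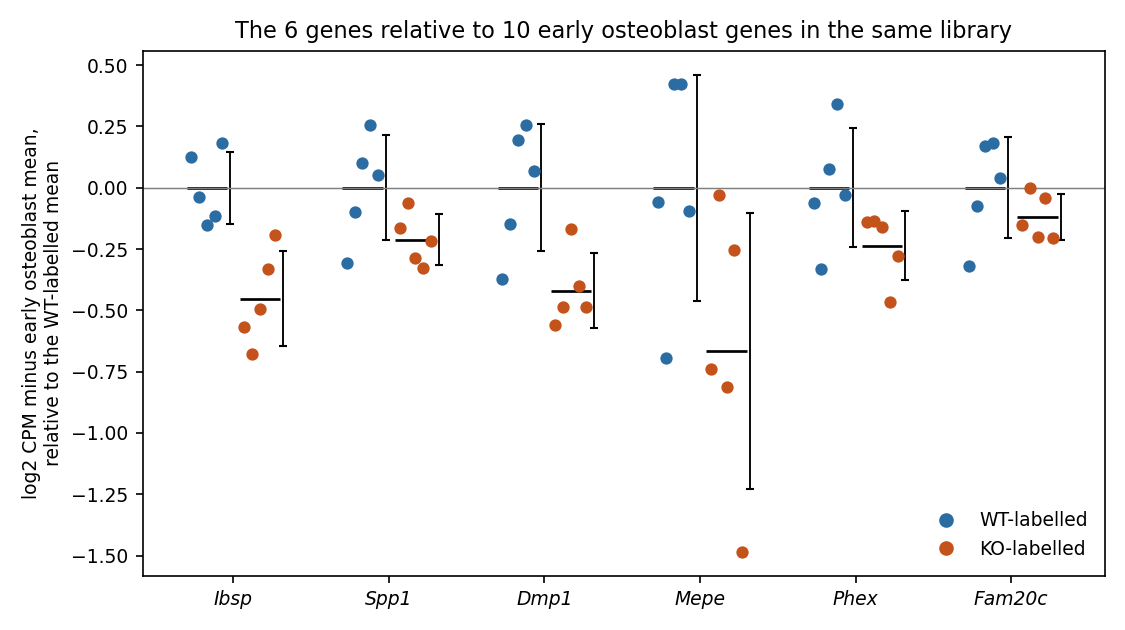
Log2 CPM of each of the 6 genes minus the mean log2 CPM of 10 early osteoblast genes in the same library, shifted so that each gene's WT-labelled mean is 0. Points are libraries, horizontal lines group means and bars SD (n = 5 each), and for *Ibsp*, whose groups overlap in CPM, all 5 KO-labelled points lie below the WT-labelled points on this scale, as for 0.111% of genes tested.

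The 15 pairs of the 6 genes were compared by the log2 ratio of their levels within a library, and none had an adjusted p under 0.05. *Dmp1* minus *Ibsp*, an osteocyte gene against an earlier one, was −1.71 ± 0.36 log2 units in WT-labelled and −1.68 ± 0.24 in KO-labelled libraries (exact permutation p = 0.873, n = 5 each). *Mepe* minus *Ibsp* was −5.75 ± 0.54 and −5.96 ± 0.71 (exact permutation p = 0.619), and *Spp1* minus *Ibsp* was 1.40 ± 0.32 and 1.64 ± 0.27 (exact permutation p = 0.23). *Fam20c* minus *Dmp1* had the smallest p, at −3.10 ± 0.06 in WT-labelled and −2.80 ± 0.20 in the KO-labelled group (exact permutation p = 0.0397). *Dmp1* minus *Spp1* was −3.11 ± 0.06 and −3.32 ± 0.23 (exact permutation p = 0.103). Over the 15 pairs, adjusted p-values ran from 0.333 to 0.873, which does not show that the genes differed alike. The smallest permutation p possible was 0.00794, so a pair on its own could not reach an adjusted p of 0.05 over 15 pairs.

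Genes that process or bind SIBLING proteins, or that set phosphate and pyrophosphate at the mineral, were listed as 22, of which 21 were tested. Of these, 17 were lower and 4 higher, with a median of −0.13 log2 units, 6 at an unadjusted p under 0.05 in the lower direction and 1 in the higher. The one higher gene was *Pcsk5*, a proprotein convertase, at 58.0 ± 4.40 against 76.3 ± 10.4 CPM (0.40 log2 units, edgeR adjusted p = 0.307). *Enpp1*, whose ectoenzyme makes pyrophosphate, read 176 ± 30.4 against 141 ± 21.4 CPM (−0.33, edgeR adjusted p = 0.634), and *Ank*, a gene of pyrophosphate transport, 205 ± 36.0 against 165 ± 15.7 CPM (−0.31, adjusted p = 0.606). *Itgb3*, a subunit of the integrin that binds osteopontin and bone sialoprotein, read 113 ± 19.4 against 91.3 ± 8.83 CPM (−0.30, adjusted p = 0.634). The phosphate transporter gene *Slc20a2* differed by −0.24 (adjusted p = 0.468) and *Tgm2*, a transglutaminase, by −0.20 log2 units (adjusted p = 0.571). The other genes of the Fam20 family, *Fam20a* (0.12) and *Fam20b* (−0.04), and *Bmp1* (−0.09), whose protease cuts Dmp1, had unadjusted edgeR p-values of 0.167 or more.

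Other cells of the excised tissue were read by their markers. Osteoclast genes, relevant to *Spp1* because osteoclasts express it, summed to 2420 to 3830 CPM in WT-labelled and 2680 to 3030 CPM in KO-labelled libraries, with 9 of 10 lower, a median of −0.15 and *Calcr* at an unadjusted p under 0.05 (−0.54, edgeR adjusted p = 0.631). WT-labelled library 4 was highest and library 1 lowest of the 10 for this sum, as they were within their group for *Spp1*, *Dmp1* and *Fam20c*. Macrophage genes gave 452 to 629 against 437 to 553 CPM, with 6 of 8 lower and *Lyz2* higher (0.63, adjusted p = 0.336). The part of osteoclasts and macrophages in the group difference of *Spp1* was not tested.

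Of 6 connective tissue genes of the fontanelle, 5 had a higher fitted value, with a median of 0.33 log2 units, and 4 reached an unadjusted p under 0.05 in the higher direction, as 3.68% of all genes tested did (598 genes). Their summed level was 396 to 459 CPM in WT-labelled and 467 to 637 CPM in KO-labelled libraries, and *Fmod*, which overlapped between groups, made up most of it (257 ± 31.5 against 286 ± 51.0 CPM). *Thbs4* had a lower fitted value (−0.56, edgeR adjusted p = 0.913). *Matn4*, a cartilage and connective tissue matrix gene, read 84.3 ± 11.1 against 132 ± 23.6 CPM (0.64, edgeR adjusted p = 0.184), the tendon gene *Tnmd* 44.1 ± 6.41 against 65.8 ± 13.5 CPM (0.58, adjusted p = 0.326), with *Mkx* (0.31) and *Scx* (0.35) also at an unadjusted p under 0.05. Whether the share of bone against soft tissue in the excised piece had a part in the lower levels of the 6 genes was not tested. Chondrocyte genes were mixed, with 3 of 8 lower, *Col2a1* higher (0.88, adjusted p = 0.302), *Matn3* higher (1.03, and 0.64 without KO-labelled library 2, on 171 counts over all libraries) and *Col10a1* lower (−0.56), all short of an adjusted p of 0.05.

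Neuron genes were higher in 6 of 6, with *Nefl* at 1.92 log2 units (edgeR adjusted p = 0.586) and at 0.48 without KO-labelled library 1, and with sums of 39.2 to 98.6 against 44.7 to 333 CPM. Skeletal muscle sums reached 713 CPM in WT-labelled library 2 and 708 CPM in KO-labelled library 1 and were 17.4 to 140 CPM elsewhere, so that *Acta1* (−0.25) and *Myh8* (0.24) had standard errors above 1 log2 unit, and the sign of both depends on which library is left out. Epidermis genes (*Perp* and *Dsp* the most abundant) summed to 10.7 to 17 against 10 to 15.2 CPM, and erythroid genes (*Hbb-bs* and *Hba-a1*) to 773 to 1970 against 688 to 1330 CPM. Tooth genes were near the floor, with *Ambn* at 2.43 ± 0.765 against 2.15 ± 0.387 CPM and the other 4 of 5 not tested. These are genes of enamel, so they do not show whether dentin, where SIBLING proteins are also made, was present. None of these gene lists held a gene with an adjusted p under 0.05, and their part in the differences of the 6 genes was not tested beyond the values without KO-labelled library 2.

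Neighbouring genes on chromosome 5 were read to show the size of differences around the SIBLING genes. Within 500 kb of the cluster, 17 genes were listed and 14 tested, of which 10 are not SIBLING genes. These ran from −0.33 to 0.07 log2 units, 7 lower and 3 higher, and 1 had an unadjusted p under 0.05. That gene was *Hsd17b11*, a steroid dehydrogenase gene, at −0.18 log2 units (edgeR adjusted p = 0.659). The lowest value was that of *Gm42793*, the gene model that shares exon bases with *Spp1*, and the next gene downstream, *Pkd2*, had 0.07. On the *Dmp1* side *Sparcl1*, a gene related to *Sparc*, had −0.07, *Nudt9* −0.13, *Klhl8* 0.01 and *Aff1* 0.00, while on the *Spp1* side *Thoc2l* had 0.06, *Zfp951* −0.05 and *Abcg3* −0.02 log2 units.

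**Figure D4:**
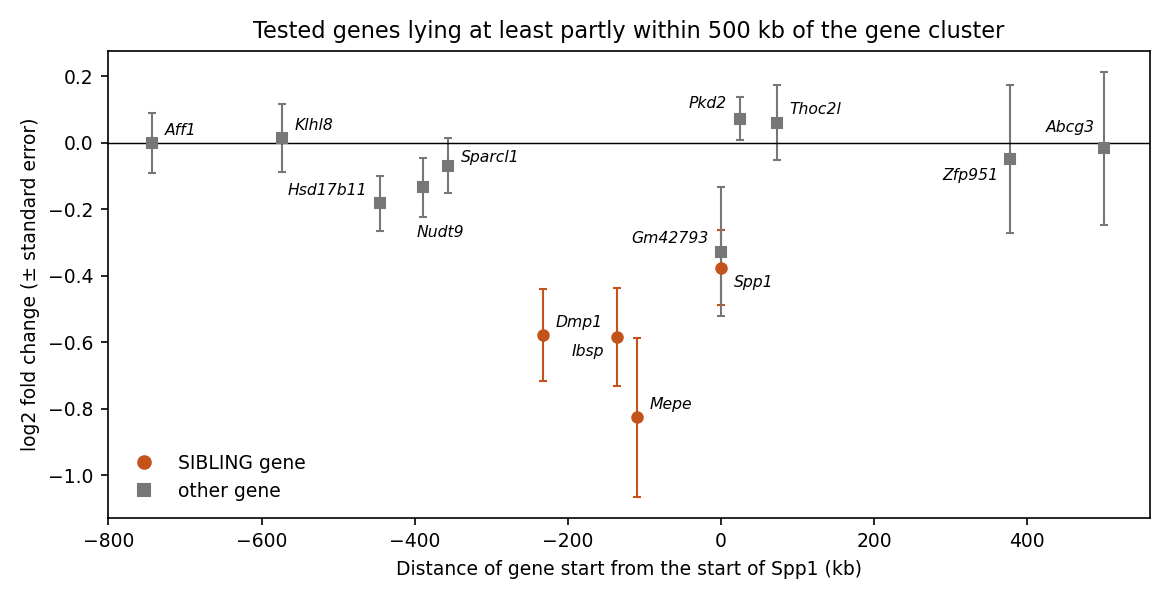
Fitted log2 fold change with its standard error for the 14 tested genes within 500 kb of the SIBLING cluster, against the distance of the gene start from the start of *Spp1* in kb. The 4 SIBLING genes lie between −0.83 and −0.38, and the other 10 between −0.33 and 0.07.

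Within groups, after subtraction of each group's mean log2 CPM, relations among the 6 genes ranged from r = −0.5 to 0.87. *Fam20c* went with *Dmp1* (r = 0.82, rho = 0.76, permutation p = 0.00708, adjusted 0.052) and with *Spp1* (r = 0.87, rho = 0.83, p = 0.00771 by permutation, adjusted 0.052) over the 10 libraries, and r was 0.71 and 0.65 without the 2 farthest libraries. These 2 lay farthest from the median of 1 gene of the pair, so they can differ between pairs. That gene was the earlier in the order *Ibsp*, *Spp1*, *Dmp1*, *Mepe*, *Phex*, *Fam20c*. *Spp1* and *Dmp1* gave r = 0.74 and rho = 0.68 (permutation p = 0.0258, adjusted 0.0995), and r = 0.5 without the 2 farthest. *Spp1* and *Phex* gave r = 0.75 and rho = 0.84 (permutation p = 0.0374, adjusted 0.112), with r = 0.82 without the 2 farthest. *Ibsp* had r between −0.5 and 0.27 with the other 5. Without the 2 farthest, r went from −0.5 to −0.01 with *Mepe*, from 0.12 to −0.43 with *Spp1*, from 0.27 to −0.16 with *Dmp1*, from 0.13 to −0.27 with *Phex* and from 0.13 to −0.29 with *Fam20c*. *Mepe* with *Dmp1* gave r = 0.16 and with *Phex* 0.26 (permutation p = 0.674 and 0.514), and 0.46 and 0.02 without the 2 farthest.

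*Sp7* for osteoblasts and *Acp5*, the acid phosphatase TRAP, for osteoclasts were set against all 6. Here the 2 farthest libraries were set by the gene of the 6, not by *Sp7* or *Acp5*. *Fam20c* and *Acp5* had r = 0.93 and rho = 0.95 (permutation p = 0.000347, adjusted 0.00937), and 0.88 without the 2 farthest libraries. *Spp1* and *Acp5* had r = 0.91 and rho = 0.83 (permutation p = 0.00333, adjusted 0.045), and 0.77 without the 2 farthest. *Ibsp* and *Acp5* had r = −0.06, and −0.38 without the 2 farthest. With *Acp5*, *Dmp1* had r = 0.72 (permutation p = 0.015, adjusted 0.081), *Phex* 0.5 and *Mepe* 0.27. Without the 2 farthest these were 0.61, 0.18 and 0.57. The relations with *Sp7* ran from −0.17 for *Mepe* to 0.68 for *Phex*, none with an adjusted permutation p under 0.05. Those of *Ibsp* (0.55) and *Mepe* with *Sp7* turned to −0.31 and 0.31 without the 2 farthest libraries. In all 27 relations were computed over 14400 permutations within groups, and all pairs share libraries, depth and normalization.

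By the same measure over 14472 genes of at least 1 CPM, the 3 genes most like each of the 6 were found. For *Spp1* they were *Dph6* (r = 0.959), *Morn2* (0.95) and *Nckap1l* (0.946), and for *Dmp1* the lysosomal genes *Npc2* (0.943) and *Ctsb* (0.928), followed by *Tnfaip2* (0.919). For *Phex* they were the osteocalcin gene *Bglap2* (0.943), *Lgr6* (0.942) and *Kank1* (0.939), and for *Ibsp* *Pomt1* (0.953), *Cenpq* (0.933) and *Lclat1* (0.933). For *Mepe* they were *Egfl7* (0.948), *Slc7a6os* (0.944) and *Med8* (0.938), and for *Fam20c* *1500009L16Rik* (0.954), *Ddx31* (0.94) and *Zkscan6* (0.937). The 6 sets of 3 share no gene, and with 10 libraries the highest of so many values is large for any gene, so they are given as a description.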

How the data were processed

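Bulk RNA-seq of 10 libraries was analysed. The authors made stranded single-end libraries and deposited estimated counts per gene, unscaled between libraries and 66.4% whole; the submitters' processing notes name Partek and mm10, and counting tool and strand setting are not given in the sources used here. No listed gene had fewer than 10 counts in all. The planned test assumed whole counts, so estimated counts were rounded. In R 4.3.3, genes were filtered with filterByExpr (6813 left out), scaled by TMM (0.90 to 1.132) and compared with edgeR 4.0.16 (quasi-likelihood, 5 against 5, no covariate), with Benjamini-Hochberg adjustment over 16267 genes and a threshold of 0.05. Log2 CPM used a prior count of 0.5. Lengths are exon unions of GENCODE M21, whose positions 22296 of 22533 matched symbols share with the table. The edgeR script was tested on simulated data.

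The 6 genes and all lists were chosen with earlier results of these data known. From each list the text names genes at an adjusted p under 0.05, else at an unadjusted p under 0.05 (at most 6, smallest p first), else the 2 most abundant. *Col1a1*, *Fmod*, *Thbs4*, *Fam20a*, *Fam20b* and *Bmp1* were named after their values were seen.

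Alternatives were DESeq2 1.42.0 (size factors, Wald test), limma 3.58.1 (voom with quality weights), library size only, no ribosomal RNA genes, no filter, 10 counts in every library, a replicate block, an *Xist* covariate and leaving out each library. Same-numbered libraries correlated at −0.211 to 0.139 across genes, so the numbers were not treated as pairs. The study describes littermate pairs, which the labels do not identify. The main fit and the permutation tests of group differences are therefore unpaired, and a litter effect was not tested.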

Additional observations from a re-analysis of the deposited data

How the results depend on the processing

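In the main edgeR fit, 3.82% of all genes tested were lower at an unadjusted p under 0.05. The alternative fits reuse the same libraries and are not independent of each other. The differences of *Ibsp*, *Spp1*, *Dmp1*, *Mepe*, *Phex* and *Fam20c* kept their direction and an unadjusted p under 0.05 in all 114 fits (19 alternatives for each gene). Adjusted p fell under 0.05 in 3 of these, all with DESeq2's Wald test, which called 0.615% of the genes it gave an adjusted p, at −0.58 for *Ibsp* (0.0146), −0.37 for *Spp1* (0.0449) and −0.57 for *Dmp1* (0.00897). Leaving out 1 library at a time gave −0.72 to −0.48 for *Ibsp*, −0.43 to −0.30 for *Spp1*, −0.65 to −0.50 for *Dmp1*, −0.96 to −0.70 for *Mepe*, −0.48 to −0.30 for *Phex* and −0.35 to −0.23 for *Fam20c*. With the replicate block they were −0.61, −0.37, −0.58, −0.82, −0.39 and −0.28, with no change of call. No same-numbered pair correlated best with its own number.

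The number of genes called, 3 by edgeR, was 98 with DESeq2's Wald test, 1 with library size only, 1 with the replicate block, 1 with *Xist* as a covariate, and 1 to 6 with 1 library left out, the 6 being without KO-labelled library 2. *Fgfr2* was 0.63 with library size only (adjusted p = 0.152), 0.67 without a filter (0.0557), 0.68 with the replicate block (0.427), 0.66 with *Xist* (0.0625) and 0.63 to 0.75 with 1 library left out. Of 664 fits of 35 genes that the naming rule took from the lists, 6 gained an adjusted p under 0.05, all with DESeq2's Wald test (*Alpl* 0.0173, *Pcsk5* 0.0121, *Lyz2* 0.0158, *Col2a1* 0.00357, *Matn4* 0.000472 and *Tnmd* 0.0158), and 8 reversed, for *Acta1* with 1 library left out (−1.98 to 1.27) and for *Myh8* with the replicate block (−0.36), with *Xist* (−0.25) and with 1 library left out (−1.93 to 2.18). The cause was not tested. No value was possible for *Dspp*. Counts of 264 or more per library stand behind each of the 6 genes. The parts of counting and of spread between libraries in these comparisons were not separated.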
